A study of Mus musculus with 15 samples.

Results

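Astrocyte genes, 33 genes characteristic of the astrocytes of the brain, were followed in RNA-seq libraries of mouse striatum. They were taken by gene symbol from a list of names drawn up with earlier results of these data known, and all 33 were found among the 45777 features of the deposited tables. The animals were wild type male ICR mice, an outbred stock, whose striatum was collected at 7 weeks of age. The founders of both lineages were males that, from 6 weeks of age, were injected under the skin for 21 days with methamphetamine (METH, a psychostimulant; 5 mg/kg) or with saline (10 mL/kg). F1 mice were fathered by these founders and F2 mice by F1 males, each time with drug-free dams, and the labels describe injections of the founders only. The saline lineage had n = 4 animals in F1 and n = 4 in F2, and the METH lineage n = 3 in F1 and n = 4 in F2, with 1 library per animal. The labels name the cell type as neuronal although the tissue was striatum. They tie no animal to a litter or founder, so the p-values measure only the spread between these animals, and animals that share a founder could make them too small.

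Astrocytes take up the glutamate and GABA that neurons release, convert glutamate to glutamine, buffer potassium and water through channels and gap junctions, and supply neurons with metabolites and lipids. The genes for these tasks are switched on together as astrocytes mature, under transcription factors that include SOX9 and nuclear factor I proteins, and they serve as markers of the cell type. In striatum, astrocytes surround the synapses of spiny projection neurons, the neurons on which dopamine and therefore methamphetamine act. In bulk tissue, fewer astrocytes and less RNA per astrocyte cannot be told apart.

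Libraries held 31563806 to 50573906 counts, and the 33 genes had 187 to 161319 counts each per library, so all of them were tested in every comparison. Their summed share of all TPM (transcript levels scaled for length and library size) was 0.802 to 1.19% per library. Neuronal genes were abundant in the same libraries, with Rbfox3 at 244.5 to 280.0 CPM (reads scaled to a fixed library total) and Snap25 at 888 to 1511 CPM. Slc17a7, the vesicular glutamate transporter of cortical excitatory neurons, varied widely: its level was 321, 97.5, 529 and 9.41 CPM in F1 saline replicates 1 to 4 and 30.7, 23.9 and 394 CPM in F1 METH replicates 1 to 3. The F2 libraries had 10.5, 9.95, 56.5 and 183 CPM in the saline lineage and 10.9, 129.9, 74.5 and 67.2 CPM in the METH lineage. The 5 libraries above 100 CPM were left out together in 1 alternative fit, whose values are given beside the results. F1 METH replicate 3, 1 of these 5, also stood apart in the astrocyte genes, and F1 values without it are given for the 33 genes together, for each role group and for each gene described by library.

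Promoter sequence is shown for 4 genes that frame the results below: Gjb6 and Slc1a2 had the highest fold changes in F1, Fam107a the lowest in F2, and Gfap was 1 of the 3 genes with a fold change below 0 in F1. Each line holds the 250 bases before an annotated start, 5′ to 3′ on the gene's strand, from RefSeq on GRCm38.p6, the build of the files. Capitals mark matches to a palindromic core that the glucocorticoid receptor can bind (ACANNNTGT, which reads the same on both strands) or to a STAT-type site (TTCNNNGAA, likewise the same on both strands). The windows lie at chr14:57133612-57133861 (Gjb6, minus strand), chr2:102706188-102706437 (Slc1a2, plus strand), chr14:8309778-8310027 (Fam107a, minus strand) and chr11:102897201-102897450 (Gfap, minus strand). Those of Slc1a2 and Fam107a lie before starts inside the annotated span of the gene. For Fam107a the last listed of 3 starts in the RefSeq table was chosen, and its other windows are not shown. Gjb6, Slc1a2 and Gfap have 1 start each.
Gjb6: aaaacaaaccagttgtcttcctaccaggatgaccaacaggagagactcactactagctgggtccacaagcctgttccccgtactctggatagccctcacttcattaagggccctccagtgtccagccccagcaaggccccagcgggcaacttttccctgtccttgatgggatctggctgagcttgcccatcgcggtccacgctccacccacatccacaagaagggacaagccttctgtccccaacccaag
Slc1a2: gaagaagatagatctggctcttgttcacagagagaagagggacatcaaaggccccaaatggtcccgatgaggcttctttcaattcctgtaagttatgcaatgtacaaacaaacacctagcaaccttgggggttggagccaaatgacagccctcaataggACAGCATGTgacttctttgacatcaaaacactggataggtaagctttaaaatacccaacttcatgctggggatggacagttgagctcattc
Fam107a: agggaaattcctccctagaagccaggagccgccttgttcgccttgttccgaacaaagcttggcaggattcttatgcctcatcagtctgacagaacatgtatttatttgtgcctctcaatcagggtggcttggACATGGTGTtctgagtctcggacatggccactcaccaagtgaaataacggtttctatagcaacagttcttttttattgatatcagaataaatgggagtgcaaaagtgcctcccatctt
Gfap: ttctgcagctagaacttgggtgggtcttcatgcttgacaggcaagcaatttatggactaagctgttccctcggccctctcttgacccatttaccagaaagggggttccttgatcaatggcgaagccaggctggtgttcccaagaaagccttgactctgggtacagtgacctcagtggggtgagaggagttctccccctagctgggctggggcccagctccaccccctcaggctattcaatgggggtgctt
The match in Slc1a2 begins 91 bases before the start and that in Fam107a 118 bases before it, while the Gjb6 and Gfap windows held neither motif.

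Of the 33 genes, 28 had a promoter window in the RefSeq table, with 38 windows in all. Slc14a1, Aqp4, Sparcl1, Sox9 and Atp1b2 had none. The core ACANNNTGT was present in 5 of the 38 windows, belonging to Cldn10, Fam107a, Glul and Slc1a2, and in 5.84% of all 32851 windows of the same length. The STAT-type letters were in 4 of the 38 windows (Acsbg1, Aldoc, Ntsr2 and Slc1a3) against 7.02% of all windows. Searched on both strands, the nuclear factor I letters TTGGCA were in 6 of the 38 windows (Aldoc, Apoe, Fam107a, Hepacam and S100b) against 12.3% of all windows. The SOX letters ACAAAG were in 4 of the 38 (Apoe, Cldn10 and Fam107a) against 16.5% of all windows. TATAAA was in 5 of the 38 windows (Apoe, Ndrg2, Slc1a3, Slc25a18 and Slc39a12) against 12.4% of all windows. These matches describe the letters and were not tested for binding.

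The level of the genes among themselves was compared in TPM, which are scaled for transcript length. Apoe, the lipid carrier apolipoprotein E, was the highest, with a median of 2755 TPM over the 15 libraries. Glul, which makes glutamine, followed at 1124 TPM, then Sparcl1 (909 TPM), Ndrg2 (719.9 TPM), the glutamate transporter gene Slc1a2 (651 TPM), Aldoc (590.5 TPM) and Ttyh1 (475 TPM). At the other end were Cbs (21.7 TPM), Sox9 (16.2 TPM) and the urea transporter gene Slc14a1 (5.50 TPM). Of the 32 pairs of neighbours in this order, 30 had overlapping ranges over the libraries; those of Ttyh1 and Slc1a3 and of Sox9 and Slc14a1 did not overlap. Apoe was listed at 1271 TPM in F1 saline replicate 3 and at 2206 to 3230 TPM in the other 14 libraries, whereas its level from counts in that replicate, 1459 CPM, lay within the 1448 to 1588 CPM of the other F1 saline libraries.

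Sons of METH founders had higher values than sons of saline founders for 30 of the 33 genes, against 49.1% of the 18499 genes tested in F1. The median log2 fold change of METH over saline was 0.18, a 1.14-fold difference, against a median of -0.0035 over all genes. Values ran from -0.093 for Sox9 to 0.43 for Gjb6, and the 2 other genes below 0 were Slc6a11 and Gfap. None passed edgeR's quasi-likelihood test with Benjamini-Hochberg adjustment (adjusted p = 0.994 for each of the 33), a test that called 0% of all genes in F1 (smallest adjusted p = 0.785). The genes Gpr37l1, Gjb6, Ndrg2, Slc1a2 and Plpp3 were higher with an unadjusted p under 0.05, which is 5 of 33 genes against 2.52% of all genes. The 33 genes varied together over the libraries, so counts of them, here and below, are not counts of independent results. Over all genes 774 (4.18%) had an unadjusted p under 0.05 in either direction. DESeq2 called 11 genes and limma-voom 3, with 0 of the 33 among them. In 2 of the 33, Gpr37l1 and Plpp3, every METH library was above every saline library in CPM, against 2.94% of all genes. On the deposited TPM the Plpp3 groups overlapped, with saline replicate 3 at 174 and METH replicate 2 at 169 TPM, and those of Gpr37l1 did not.

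In F1, METH replicate 3 stood apart from the other libraries. As log2 differences from the saline mean, the median over the 33 genes was 0.090, 0.046 and 0.43 in F1 METH replicates 1 to 3, and -0.011, -0.0043, -0.0076 and 0.00050 in the saline replicates. METH replicate 3 had the highest value of all F1 libraries in 28 of the 33 genes and lay above the mean of the other 6 F1 libraries in all 33. Its log2 ratio to that mean ran from 0.027 for Ntsr2 to 1.07 for Slc25a18, with a median of 0.40. Without METH replicate 3 the median log2 fold change was 0.072 with 24 of 33 genes higher, and without the 5 libraries with Slc17a7 above 100 CPM it was 0.059 with 23 higher. METH replicate 3 was 1 of these 5, at 394 CPM. The F1 libraries kept in that fit were saline replicates 2 and 4, with Slc17a7 at 97.5 and 9.41 CPM, and METH replicates 1 and 2, at 30.7 and 23.9 CPM. Saline replicates 1 and 3, at 321 and 529 CPM, had medians of -0.011 and -0.0076, and the part of cortical tissue in the result was not tested. With log2 Slc17a7 as a covariate in the fit the median was 0.19, with 14 of the 33 genes and 6.92% of all genes at an unadjusted p under 0.05 and 0 called. This was the highest such count of the F1 alternatives, and the lowest was 0.

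In F2 the direction was the opposite. Grandsons of METH founders had lower values than those of saline founders for 32 of the 33 genes, against 50.5% of the 18093 genes tested, and only Slc4a4, a sodium bicarbonate cotransporter gene, was not below 0 (0.0035). The median log2 fold change was -0.18, a ratio of 0.881, against -0.0020 over all genes, and the lowest value was -0.43 for Fam107a. None of the 33 passed the edgeR test (adjusted p from 0.960 to 1.00), which called 0% of all genes in F2 (smallest adjusted p = 0.182). Lower with an unadjusted p under 0.05 were 12 genes, against 2.66% of all genes: Slc25a18, Fam107a, Aldoc, Ppp1r3c, Cldn10, Ttyh1, Slc1a3, Apoe, Ndrg2, Aldh1l1, Gjb6 and Acsbg1. Over all genes, 863 (4.77%) had an unadjusted p under 0.05 in either direction, DESeq2 called 7 and limma-voom 1, with 0 of the 33 among them. In CPM, every METH library was below every saline library for Slc1a3, Slc25a18, Aldoc and Mfge8, 4 of 33 genes against 1.52% of all genes. On the deposited TPM the Slc1a3 groups overlapped, with saline replicate 2 at 337 and METH replicate 3 at 344 TPM. So did those of Mfge8, at 208 and 219 TPM in the same libraries, while those of Slc25a18 and Aldoc did not.

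The F2 METH libraries were close together, and the saline libraries were spread. The median over the 33 genes, again as a log2 difference from the saline mean, was -0.15, -0.23, -0.14 and -0.22 in METH replicates 1 to 4. In the saline replicates it was 0.17, -0.032, 0.054 and -0.18. Saline replicate 1 was the highest F2 library in 25 of the 33 genes and saline replicate 3 in 6. Saline replicate 4, whose Slc17a7 was at 183 CPM, lay at the level of the METH libraries. Without saline replicate 1 the median log2 fold change was -0.11 with 29 of 33 genes lower. By role group, this median was -0.073 for glutamate and GABA handling, -0.11 for gap junctions, water and ions, and -0.15 for metabolism. It was -0.061 for cytoskeletal and secreted proteins, with 3 of 5 lower, and -0.11 for receptors and signalling. Without saline replicate 4 the median of the 33 was -0.23 with 33 lower and 20 at an unadjusted p under 0.05, against 8.71% of all genes in that fit. This was the highest such count of the F2 alternatives, against 12 with all libraries, and the lowest was 4. Without the libraries above 100 CPM of Slc17a7 the median was -0.22 with 31 lower.

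**Figure D1:**
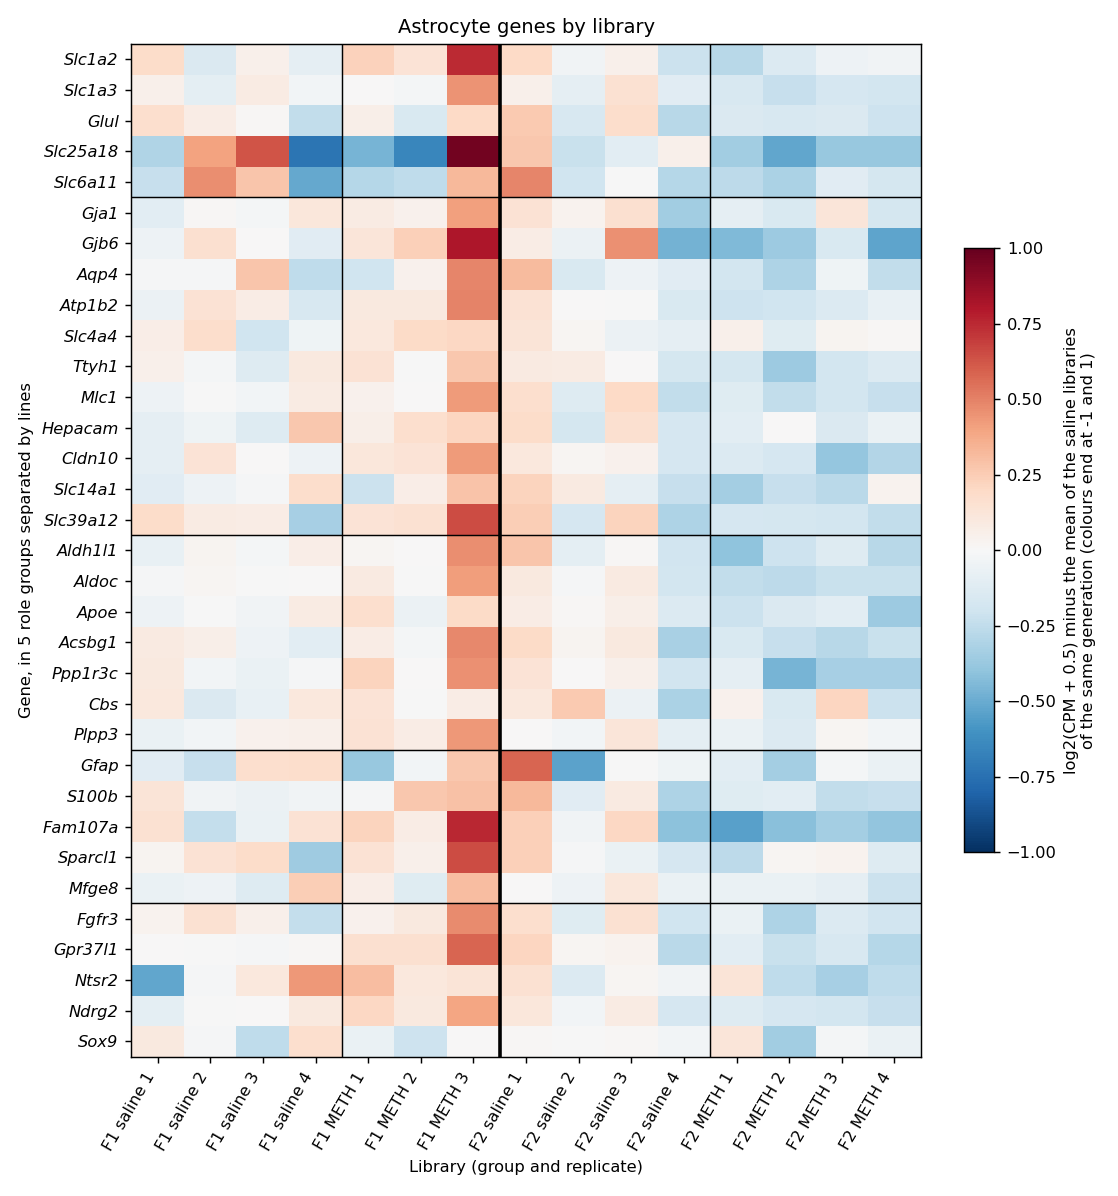
Level of each of the 33 genes (vertical axis, in 5 role groups) in each of the 15 libraries (horizontal axis), coloured by log2(CPM + 0.5) minus the mean of the saline libraries of the same generation, with colours ending at -1 and 1. F1 METH replicate 3 is red in nearly all genes, with a median of 0.43, F2 saline replicate 1 is mostly light red, and the 4 F2 METH libraries are mostly blue, with medians of -0.14 to -0.23.

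Of 5 genes that handle glutamate and GABA, 4 were higher in F1 METH mice (median log2 fold change 0.051) and 5 were lower in F2 METH mice (median -0.18). Without METH replicate 3, 1 of the 5 was higher in F1 (median -0.046). Slc1a2 (gene ID 20511, chromosome 2, 102658239 to 102790784, plus strand) encodes GLT-1, the main glutamate transporter of forebrain astrocytes. Its values were 2694, 2148, 2458 and 2236 CPM in F1 saline replicates 1 to 4 and 2785, 2611 and 3979 CPM in METH replicates 1 to 3. METH replicate 3 stood above the rest, METH replicate 1 was just above the saline range and METH replicate 2 within it. The log2 fold change was 0.40 (SE 0.16), a 1.32-fold difference at an unadjusted p of 0.0358, and 0.18 without METH replicate 3. In F2, Slc1a2 was at 3586, 3062, 3246 and 2692 CPM in the saline lineage and 2585, 2844, 3018 and 3052 CPM in the METH lineage. The groups overlapped, and the log2 fold change was -0.12 (SE 0.092).

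Slc1a3 (gene ID 20512, chromosome 15, 8634124 to 8710807, minus strand) encodes GLAST, the second glutamate transporter of astrocytes. In F1 it was at 484, 436, 495 and 459 CPM in the saline lineage and 470.1, 462 and 639.6 CPM in the METH lineage. Only METH replicate 3 lay outside the saline range, and the log2 fold change of 0.17 (SE 0.12) became -0.0039 without it. In F2 the saline libraries were at 601, 545, 642 and 534 CPM and the METH libraries at 517, 492, 515 and 511 CPM. In CPM all METH values were below all saline values, with a log2 fold change of -0.18 (SE 0.068) and an unadjusted p of 0.0247.

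Glul (gene ID 14645, chromosome 1, 153899929 to 153909723, plus strand), glutamine synthetase, was at 1388, 1299, 1245 and 1042 CPM in F1 saline and 1289.6, 1113 and 1420.0 CPM in F1 METH mice. F2 values were 1625, 1209, 1527 and 1117 CPM in the saline lineage and 1222, 1211, 1227 and 1170.0 CPM in the METH lineage, with saline libraries on both sides of the METH libraries. Its log2 fold change was 0.040 (SE 0.13) in F1 and -0.17 (SE 0.11) in F2, neither beyond the spread of the libraries, and the F1 value was -0.014 on log2(TPM + 1) and -0.046 without METH replicate 3.

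Slc25a18 (gene ID 71803, chromosome 6, 120773504 to 120794169, plus strand) encodes a mitochondrial glutamate carrier and overlaps Atp6v1e1 on the other strand. It was at 14.8, 24.4, 28.7 and 10.8 CPM in F1 saline and 13.1, 11.5 and 36.3 CPM in F1 METH mice. The 3 F1 libraries with Slc17a7 above 100 CPM (saline replicates 1 and 3 and METH replicate 3) had 14.8, 28.7 and 36.3 CPM, the last of them the highest of F1. The F1 log2 fold change of 0.051 (SE 0.45) became -0.67 without METH replicate 3 and was -0.10 on log2(TPM + 1). In F2 the values were 25.7, 18.2, 19.8 and 22 CPM in the saline lineage and 16.6, 14.7, 16.2 and 16.2 CPM in the METH lineage. The F2 groups did not overlap, and the log2 fold change was -0.42 (SE 0.11), at 21.4 ± 3.27 against 15.9 ± 0.840 CPM (mean ± SD, n = 4 each). Its unadjusted p in F2 was 0.00314, the smallest of the 33 genes. Slc6a11, the GABA transporter GAT-3, ranged from 83.9 to 166 CPM in F1 and from 144 to 252 CPM in F2, with log2 fold changes of -0.092 (SE 0.24) and -0.24 (SE 0.15).

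Of 11 genes for gap junctions, water, ions and membrane proteins, 11 were higher in F1 METH mice (median log2 fold change 0.18) and 10 were lower in F2 METH mice (median -0.20). Without METH replicate 3, 9 were higher in F1 (median 0.098). Gjb6 (gene ID 14623, chromosome 14, 57123301 to 57133611, minus strand) encodes connexin 30, which with connexin 43 forms the gap junctions between astrocytes. In F1 it was at 22, 25.5, 22.8 and 21.1 CPM in the saline lineage and 24.8, 27 and 40.3 CPM in the METH lineage. METH replicates 2 and 3 were above all saline libraries and METH replicate 1 was just below the highest of them. The log2 fold change was 0.43 (SE 0.16), or 30.7 ± 8.37 CPM (n = 3) against 22.8 ± 1.92 CPM (n = 4). Its unadjusted p was 0.0285, and the log2 fold change without METH replicate 3 was 0.18. In F2, Gjb6 was at 28.5, 26, 37.2 and 19.4 CPM in the saline lineage and 19.8, 20.9, 24.3 and 18.6 CPM in the METH lineage. The first 3 saline libraries were above all METH libraries and saline replicate 4 was among them. This was a log2 fold change of -0.40 (SE 0.17), with an unadjusted p of 0.038.

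Gja1 (gene ID 14609, chromosome 10, 56377300 to 56390419, plus strand), connexin 43, had fold changes nearer to 1 than its partner in both generations. It was at 169.9, 184, 180.4 and 198 CPM in F1 saline and 193, 189 and 242 CPM in F1 METH mice, with a log2 fold change of 0.19 (SE 0.10), or 0.066 without METH replicate 3. Levels in F2 were 268, 249, 271 and 190.3 CPM in the saline lineage and 227, 217, 264 and 214 CPM in the METH lineage, a log2 fold change of -0.071 (SE 0.11). Groups overlapped in both generations, and the difference between the 2 connexin genes was not tested.

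Aqp4 (gene ID 11829, chromosome 18, 15389394 to 15410982, minus strand), the water channel of astrocyte endfeet, was at 59, 58.9, 72.1 and 49.9 CPM in F1 saline and 51.8, 61.1 and 83.6 CPM in F1 METH mice. The F2 values were 116, 83.6, 89.5 and 86.1 CPM in the saline lineage and 81.9, 75, 90.5 and 78.5 CPM in the METH lineage. The groups overlapped in both generations, and the log2 fold changes were 0.13 (SE 0.17) in F1, -0.082 without METH replicate 3, and -0.19 (SE 0.11) in F2. Cldn10 (gene ID 58187, chromosome 14, 118787871 to 118874525, plus strand), a claudin of astrocyte membranes, was at 19.9, 23.3, 21.3 and 20.5 CPM in F1 saline and 23, 23.3 and 28.7 CPM in F1 METH mice. Measured in F2, it had 22, 20.8, 21.2 and 18.2 CPM in the saline lineage and 18.6, 18.2, 15.6 and 16.7 CPM in the METH lineage, where saline replicate 4 was the only saline library within the METH range. Its log2 fold changes were 0.24 (SE 0.11) in F1 and -0.24 (SE 0.088) in F2, with unadjusted p of 0.0545 and 0.0206, and the F1 value was 0.13 without METH replicate 3.

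The other 7 genes of this group are given by their log2 fold changes. Slc39a12, a zinc transporter gene, had log2 fold changes of 0.33 (SE 0.16) in F1 and -0.20 (SE 0.12) in F2. Atp1b2, a sodium pump subunit gene, was at 0.25 (SE 0.12) and -0.14 (SE 0.070). In F1 only METH replicate 3 was above the saline range for both genes. Slc39a12 was at 33.9, 34.3 and 48.7 CPM in METH replicates 1 to 3, against 24.3 to 34.9 CPM in saline mice. Atp1b2 was at 275.0, 275.4 and 363 CPM, against 230 to 284 CPM. Mlc1 and Hepacam, whose proteins form a complex at astrocyte junctions, were at 0.18 and 0.15 in F1 and -0.20 and -0.073 in F2. Of the F1 METH libraries, only replicate 3 was above the saline range of Mlc1. Ttyh1 was at 0.14 and -0.20 (SE 0.075), with an unadjusted p of 0.0211 in F2. Slc4a4 was at 0.17 in F1 and, as given above, was the exception in F2. Slc14a1 had the lowest level of the 33 genes, 5.78 to 11.8 CPM, with 0.062 and -0.20.

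Of 7 genes of metabolism and lipid handling, 7 were higher in F1 METH mice (median log2 fold change 0.19) and 7 were lower in F2 METH mice (median -0.22). In F2, 5 of the 7 were lower at an unadjusted p under 0.05, against 2.66% of all genes. The F1 median of the 7 was 0.063 without METH replicate 3, with 7 higher. Aldoc (gene ID 11676, chromosome 11, 78323073 to 78327781, plus strand), the aldolase of brain glycolysis, was at 634, 647, 636 and 639 CPM in F1 saline and 680.2, 639 and 854 CPM in F1 METH mice. The 4 saline values were close together, METH replicate 2 lay among them and METH replicate 3 was far above. In the F2 generation the values were 706, 654, 702 and 580.0 CPM in the saline lineage and 554, 551, 563 and 564 CPM in the METH lineage, so that every METH library was below every saline library. Aldoc had a log2 fold change of 0.19 (SE 0.11) in F1, 0.050 without METH replicate 3, and -0.23 (SE 0.068) in F2 with an unadjusted p of 0.00668.

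Aldh1l1 (gene ID 107747, chromosome 6, 90550768 to 90599171, plus strand), a folate enzyme widely used to mark astrocytes, was at 43.3, 46.6, 45 and 47.8 CPM in F1 saline and 46.2, 45.8 and 63.1 CPM in F1 METH mice. Apart from METH replicate 3 the F1 libraries were alike. F2 saline mice had 64.7, 49.7, 53.8 and 46.6 CPM and F2 METH mice 40.2, 46.1, 48.6 and 43.9 CPM, with only METH replicate 3 inside the saline range. The log2 fold changes were 0.18 (SE 0.12), which became 0.014 without METH replicate 3, and -0.25 (SE 0.11), the latter with an unadjusted p of 0.0377.

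Apoe (gene ID 11816, chromosome 7, 19696244 to 19701310, minus strand), also made by microglia, was at 1448, 1494, 1459 and 1588 CPM in F1 saline and 1679, 1440.3 and 1713 CPM in F1 METH mice. In F2 the values were 1429, 1368, 1414 and 1237 CPM in the saline lineage and 1170.0, 1231, 1266 and 1056 CPM in the METH lineage, where saline replicate 4 again lay within the METH range. Apoe had a log2 fold change of 0.11 (SE 0.096) in F1, 0.063 without METH replicate 3, and -0.19 (SE 0.074) in F2, with an unadjusted p of 0.0264 in F2.

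Ppp1r3c (gene ID 53412, chromosome 19, 36731731 to 36736604, minus strand), which targets a phosphatase to glycogen, was at 35.1, 32.1, 31.2 and 32.5 CPM in F1 saline and 38.3, 32.8 and 45 CPM in F1 METH mice. Its F2 values were 42.1, 38.3, 39.7 and 33.3 CPM in the saline lineage and 35.8, 27.5, 30.2 and 30.2 CPM in the METH lineage. Saline replicate 4 and METH replicate 1 crossed, and the other libraries were apart. The log2 fold changes were 0.25 (SE 0.11) and -0.30 (SE 0.095), with unadjusted p of 0.0542 and 0.00985, and the F1 value was 0.12 without METH replicate 3. Plpp3 (gene ID 67916, chromosome 4, 105157347 to 105232767, plus strand), a lipid phosphate phosphatase, was at 203, 209, 219 and 221 CPM in F1 saline and 235, 224 and 288 CPM in F1 METH mice. The groups did not overlap in CPM, with a log2 fold change of 0.23 (SE 0.096) and an unadjusted p of 0.041. Without METH replicate 3 this was 0.11. In F2, Plpp3 was at 270.1, 263, 292 and 251 CPM in the saline lineage and 256, 244, 273 and 264 CPM in the METH lineage, which overlapped, and the log2 fold change was -0.039 (SE 0.063). Acsbg1, an acyl-CoA synthetase gene, had log2 fold changes of 0.20 and -0.22, and Cbs, cystathionine beta-synthase, 0.074 and -0.020. Of the F1 METH libraries, only replicate 3 was above the saline range of Acsbg1.

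Among 5 cytoskeletal, calcium-binding and secreted proteins, Fam107a and Gfap gave the most and least difference between the groups in F1. The F1 median of the 5 was 0.19, or 0.086 without METH replicate 3. Fam107a (gene ID 268709, chromosome 14, 8296270 to 8317607, minus strand), an actin-associated protein gene and a known target of glucocorticoids, was at 249.9, 191, 214 and 248 CPM in F1 saline and 262, 236 and 378 CPM in F1 METH mice. METH replicates 1 and 3 were above the saline range. The log2 fold change was 0.38 (SE 0.17), with an unadjusted p of 0.0535, and 0.14 without METH replicate 3. The F2 libraries had 316, 262, 308 and 201 CPM in the saline lineage and 184, 199.7, 211 and 204 CPM in the METH lineage, or 272 ± 52.9 and 199.7 ± 11.6 CPM (mean ± SD, n = 4 each). The first 3 saline libraries were above all METH libraries and saline replicate 4 was among them. The log2 fold change of -0.43 (SE 0.12), a ratio of 0.74, had an unadjusted p of 0.00538 and was -0.35 without saline replicate 1.

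Gfap (gene ID 14580, chromosome 11, 102887336 to 102897200, minus strand), the intermediate filament that rises in reactive astrocytes, was at 62.9, 57.8, 76.7 and 76.9 CPM in F1 saline and 52.3, 66.8 and 82.1 CPM in F1 METH mice. F2 values were 146, 67.2, 97 and 94.7 CPM in the saline lineage and 90.5, 76.8, 96.3 and 93.1 CPM in the METH lineage. The METH libraries lay inside the range of the saline libraries in F2, which F2 saline replicates 1 and 2 set at both ends. Log2 fold changes were -0.027 (SE 0.16) and -0.17 (SE 0.19), and the F1 value was -0.20 without METH replicate 3 and the F2 value 0.061 without saline replicate 1.

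S100b (gene ID 20203, chromosome 10, 76253836 to 76261319, plus strand), a calcium-binding protein, overlaps Dip2a on the other strand. It was at 114, 101, 99.7 and 101 CPM in F1 saline and 103, 125 and 127 CPM in F1 METH mice. METH replicates 2 and 3 were above all saline libraries. Levels in F2 were 139.9, 103, 119 and 90.0 CPM in the saline lineage and 102, 103, 93.8 and 94.9 CPM in the METH lineage, with overlap, and the log2 fold changes were 0.19 (SE 0.094) and -0.18 (SE 0.12), the first of them 0.14 without METH replicate 3. Sparcl1, the secreted synapse-organizing protein hevin, had log2 fold changes of 0.30 (SE 0.17) in F1 and -0.071 (SE 0.099) in F2. It was at 978, 918 and 1395 CPM in F1 METH replicates 1 to 3, against 693 to 1006 CPM in F1 saline mice. Only METH replicate 3 was above the saline range. Mfge8, a secreted protein that marks debris for uptake, was at 0.091 in F1. Its F2 groups did not overlap, but only just: the lowest saline library had 160.52 CPM and the highest METH library 160.46 CPM, with a log2 fold change of -0.097 (SE 0.062).

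Of 5 receptors, signalling proteins and transcription factors, 4 were higher in F1 METH mice (median log2 fold change 0.22) and 5 were lower in F2 METH mice (median -0.17). Leaving out METH replicate 3 gave an F1 median of 0.16 with 4 higher. Gpr37l1 (gene ID 171469, chromosome 1, 135160250 to 135167681, minus strand), a G protein-coupled receptor of astrocytes, was at 146, 145, 145 and 147 CPM in F1 saline and 163, 163 and 219 CPM in F1 METH mice. The groups did not overlap and the saline libraries were close together. The log2 fold change was 0.32 (SE 0.11), a 1.25-fold difference, and its unadjusted p of 0.0163 was the smallest of the 33 genes in F1. Without METH replicate 3 the log2 fold change was 0.16. In F2 the values were 190.4, 166, 169 and 136 CPM in the saline lineage and 153, 140.3, 147 and 135 CPM in the METH lineage, which overlapped, with a log2 fold change of -0.19 (SE 0.092).

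Ndrg2 (gene ID 29811, chromosome 14, 51905271 to 51914004, minus strand), a cytoplasmic protein of mature astrocytes, was at 549, 584, 587 and 627 CPM in F1 saline and 677, 627 and 772 CPM in F1 METH mice. METH replicates 1 and 3 were above all saline libraries and METH replicate 2 was level with the highest of them. Measured in F2, it had 648, 588, 636 and 534 CPM in the saline lineage and 549, 535, 529 and 510.1 CPM in the METH lineage, with saline replicate 4 inside the METH range. The log2 fold changes were 0.24 (SE 0.095) and -0.17 (SE 0.068), with unadjusted p of 0.0315 and 0.0342, and the F1 value was 0.16 without METH replicate 3.

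Sox9 (gene ID 20682, chromosome 11, 112782210 to 112787757, plus strand), the transcription factor of the astrocyte lineage, was below 0 in both generations, as were Slc6a11 and Gfap. It was at 26.9, 24.9, 20.9 and 28.3 CPM in F1 saline and 24, 21.7 and 25.1 CPM in F1 METH mice, inside the saline range. In the F2 generation the values were 32.1, 31.7, 32.1 and 31.2 CPM in the saline lineage and 34.6, 24.8, 31.2 and 30.3 CPM in the METH lineage. Sox9 had a log2 fold change of -0.093 (SE 0.12) in F1, -0.14 without METH replicate 3, and -0.058 (SE 0.092) in F2, and METH replicate 3, the library with high values of most of the other genes, had 25.1 CPM of Sox9. Fgfr3, a fibroblast growth factor receptor, had log2 fold changes of 0.22 and -0.17, and Ntsr2, a neurotensin receptor, 0.15 and -0.15. Of the F1 METH libraries, only replicate 3 was above the saline range of Fgfr3.

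**Figure D2:**
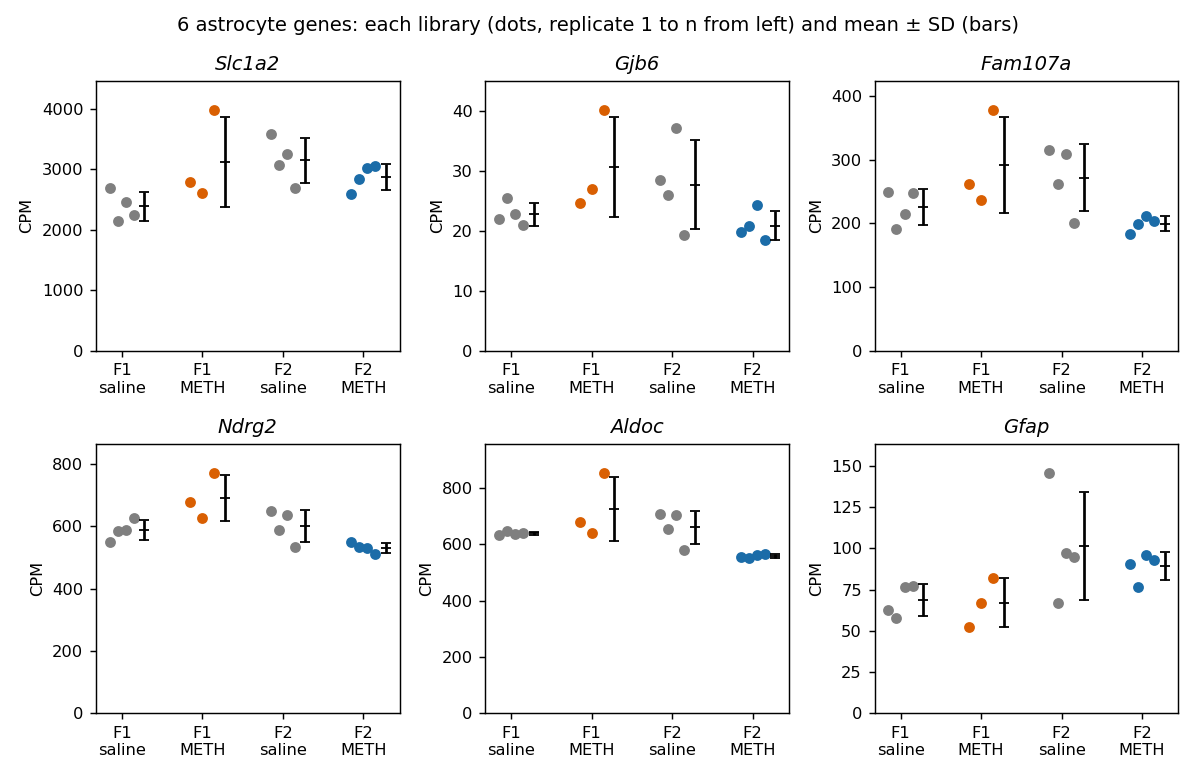
CPM (vertical axes, from 0) of Slc1a2, Gjb6, Fam107a, Ndrg2, Aldoc and Gfap in each library (dots, replicates from left to right) of the 4 groups (horizontal axes), with mean ± SD as bars. In the first 5 genes F1 METH replicate 3 is the highest F1 library and F2 saline replicate 4 lies near the F2 METH libraries; Gfap shows no separation in F1.

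The difference between the generations in the METH effect was tested as an interaction over all 15 libraries. This difference is the log2 fold change of METH over saline in F2 minus that in F1, and it was below 0 for 32 of the 33 genes, against 50.1% of the 19308 genes tested, with a median of -0.38 against -0.00057 over all genes. Sox9 was the exception at 0.026. Most oligodendrocyte, microglia and endothelial markers were also below 0, with values given further below. The astrocyte genes moved together by library. F1 METH replicate 3 was above the mean of the other F1 libraries in 33 genes, and F2 saline replicate 1 above the F2 saline mean in 33. Counts of genes under a p-value are therefore not counts of independent results. At an unadjusted p under 0.05, 19 of the 33 were lower, against 3.16% of all genes (4.88% in either direction), but 0 passed the edgeR test (smallest adjusted p = 0.854). That test called 1 gene, 0.00518% of those tested, which was not 1 of the 33, and DESeq2 called 7 and limma-voom 0, again with 0 of the 33. The smallest unadjusted p among the 33 were 0.00199 for Ndrg2 (-0.42), 0.00231 for Fam107a (-0.82), 0.00233 for Ppp1r3c (-0.55), 0.00282 for Cldn10 (-0.49) and 0.00319 for Gpr37l1 (-0.52). Gjb6 had the largest difference among the 33, -0.84 (SE 0.26), and Slc1a2 was at -0.52 (SE 0.19). Without F1 METH replicate 3 the median was -0.25 with 29 of 33 below 0 and 9 at an unadjusted p under 0.05 (4.88% of all genes in that fit). Without the libraries above 100 CPM of Slc17a7 it was -0.27 with 29 below 0 and 11 at that p (4.65% of all genes).

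In the separate fits, 29 of the 33 genes were above 0 in F1 and below 0 in F2, against 24.3% of the 17838 genes tested in both. The 4 others were Slc6a11, Gfap and Sox9, below 0 in both, and Slc4a4, above 0 in both. Genes with no overlap in both generations, higher in F1 and lower in F2, numbered 0 of 33, against 0.0392% of all genes. In CPM, Gpr37l1 and Plpp3 were separated in F1 alone, and Slc1a3, Slc25a18, Aldoc and Mfge8 in F2 alone. The generations were held in separate deposited tables, so levels of F1 and F2 mice were not compared with each other.

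**Figure D3:**
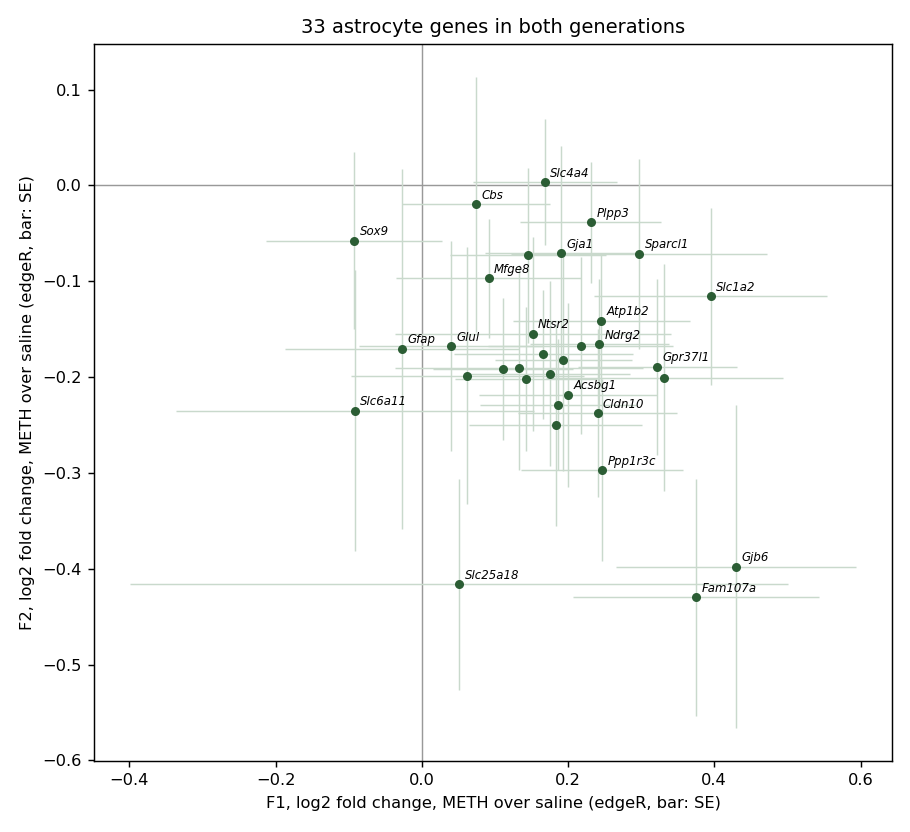
Log2 fold change of METH over saline in F1 (horizontal axis) and F2 (vertical axis) for the 33 genes (dots, with SE bars; crowded points carry no name). Most genes lie at the lower right, with medians of 0.18 and -0.18; Sox9, Slc6a11 and Gfap lie left of the F1 zero line and Slc4a4 just above the F2 zero line.

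**Figure D4:**
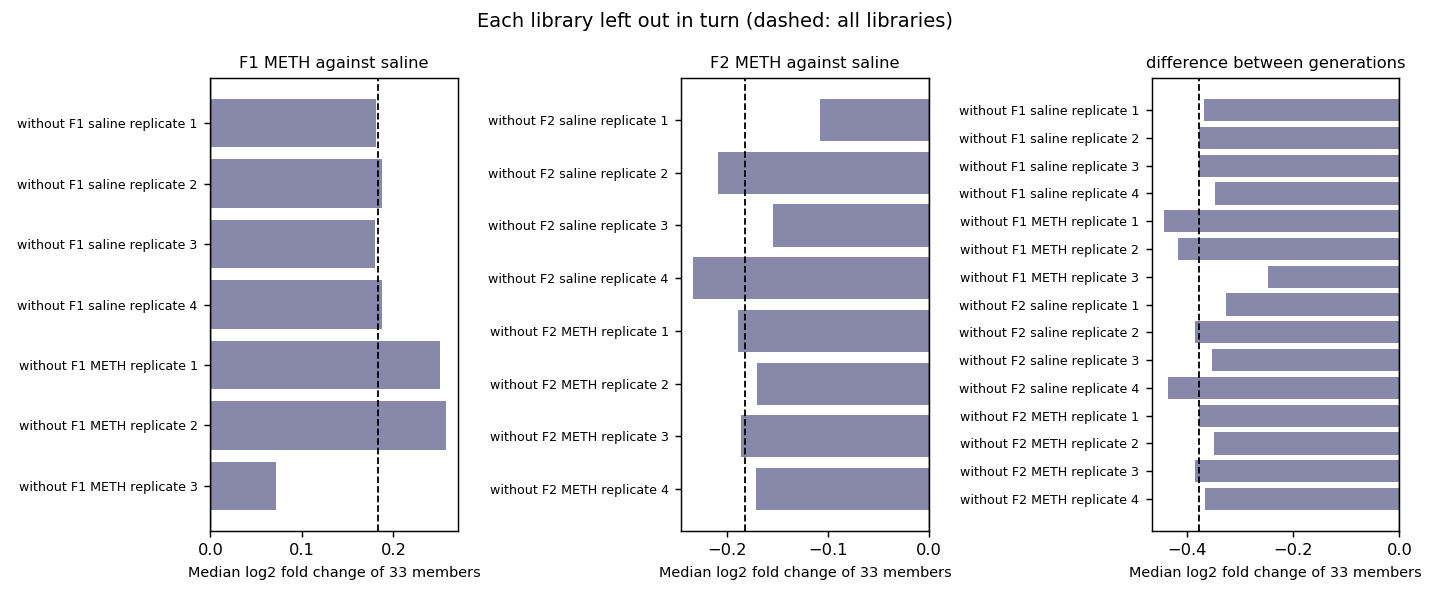
Median log2 fold change of the 33 genes (horizontal axes, bars from 0) with each library left out in turn (vertical axes), for F1, F2 and the difference between generations; the dashed line is the median with all libraries. The bar without F1 METH replicate 3 is the shortest in F1 (0.072) and in the difference (-0.25), and the bar without F2 saline replicate 1 is the shortest in F2 (-0.11).

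A list of 49 further astrocyte genes, with none of the 33 in it, had 43 higher in F1 METH mice (median log2 fold change 0.16) and 45 lower in F2 METH mice (median -0.13), with 0 passing the edgeR test in either. In F1 the smallest unadjusted p belonged to Lfng, which modifies Notch receptors (0.38 (SE 0.13)), Prodh, proline dehydrogenase (0.33 (SE 0.12)), and the heparan sulfate proteoglycan gene Sdc4 (0.33 (SE 0.12)). Sdc4 was at 41.2 ± 4.92 CPM in F1 saline and 51.7 ± 7.05 CPM in F1 METH mice, and at 42 ± 6.78 and 33.3 ± 1.64 CPM in F2 (mean ± SD, n as above). Its log2 fold change in F2 was -0.32 (SE 0.11). Also in F2, Slc7a2, a transporter of cationic amino acids, was lower (-0.21 (SE 0.071)), and Id4, an inhibitor of basic helix-loop-helix factors, was higher (0.23 (SE 0.069)). For the difference between generations, 46 of the 49 were below 0 (median -0.28), with Sdc4 at -0.66 (SE 0.17), Slc7a2 at -0.49 (SE 0.13) and the serine transporter gene Slc7a10 at -0.52 (SE 0.15). Without METH replicate 3 the F1 median of this list was 0.032, with 30 of 49 higher.

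Genes of reactive astrocytes, which are induced by injury and inflammation, were few in reads: the 37 summed to 228 to 284 CPM per library. In F1, 21 of the 30 tested were higher (median log2 fold change 0.14) and 0 had an unadjusted p under 0.05; without METH replicate 3, 19 of 31 were higher (median 0.16). In F2, 21 of the 31 tested were lower (median -0.048). At an unadjusted p under 0.05 were 6 of the 31, 5 of them lower, against 4.77% of all genes in either direction and 2.66% lower, and 0 passed the edgeR test. The smallest p in F2 were those of the small heat shock protein gene Hspb1 (-1.03 (SE 0.28)), at 5.79 ± 2.1 CPM in the saline lineage and 2.82 ± 0.598 CPM in the METH lineage, the protease inhibitor gene Serpina3n (-0.30 (SE 0.099)), and H2-D1, a class I histocompatibility gene (-0.52 (SE 0.20)). Gfap, which is also part of this response, was described above.

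Most markers of other glial and of vascular cells differed in the same directions as the astrocyte genes. In F1, 18 of 18 oligodendrocyte markers (median log2 fold change 0.26), 13 of 15 microglia markers (0.16), 13 of 15 endothelial markers (0.24) and 15 of 16 spiny projection neuron markers (0.13) were higher in METH mice. At an unadjusted p under 0.05 were 9 of the 15 endothelial, 5 of the 18 oligodendrocyte and 0 of the 15 microglia markers, against 4.18% of all genes. The smallest of these p was that of the endothelial gene Slco1a4 (0.00355, with a log2 fold change of 0.40 (SE 0.10)). Cortical excitatory neuron markers were lower for 14 of 15 (median -0.49), but this rested on single libraries: without saline replicate 3, 11 of 15 were higher (median 0.17), and without METH replicate 3 the median was -2.78. Spiny projection neuron markers were at 0.012 without saline replicate 3, with 9 of 16 higher, and at 0.25 without METH replicate 3. In F2, 17 of 18 oligodendrocyte markers (-0.14), 15 of 15 microglia markers (-0.20) and 11 of 15 endothelial markers (-0.13) were lower, while 14 of 16 spiny projection neuron markers (0.051) and 9 of 15 cortical markers (0.020) were higher. At an unadjusted p under 0.05 in F2 were 3 of the 15 microglia, 2 of the 15 endothelial and 0 of the 18 oligodendrocyte markers, against 4.77% of all genes. Without F2 saline replicate 1 the oligodendrocyte list turned, with 12 of 18 higher (median 0.046), while microglia and endothelial markers were at -0.21 and -0.078. The cortical list turned in F2 without saline replicate 1 (median -0.20), saline replicate 2 (-0.22) or METH replicate 2 (-0.13), and the spiny projection neuron list without saline replicate 4 (-0.018). For the difference between generations, 17 of 18 oligodendrocyte markers (median -0.41), 15 of 15 microglia markers (-0.41) and 14 of 15 endothelial markers (-0.31) were below 0. Of these lists, 3, 5 and 7 genes had an unadjusted p under 0.05, against 4.88% of all genes. Spiny projection neuron markers were below 0 for 13 of 16 (-0.090) and cortical markers above 0 for 14 of 15 (0.34). None of these genes passed the edgeR test in either generation or for the difference. The medians of the 33 astrocyte genes, 0.18 and -0.18, lay between the lowest and highest medians of the oligodendrocyte, microglia and endothelial lists, and the part of those cell types in the result was not tested.

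Summed over each list, oligodendrocyte markers were at 7156 to 8881 CPM in F1 saline, 7943 to 11207 CPM in F1 METH, 7498 to 14014 CPM in F2 saline and 8296 to 10259 CPM in F2 METH libraries. Microglia markers were at 427 to 508 CPM, 449 to 621 CPM, 426 to 643 CPM and 433 to 499 CPM in the same order, and endothelial markers at 445 to 512 CPM, 555 to 627 CPM, 408 to 459 CPM and 358 to 412 CPM. Cortical markers were at 364 to 1414 CPM, 344 to 1050 CPM, 317 to 656 CPM and 330.5 to 566 CPM. The 33 astrocyte genes summed to 10426 to 11150.3 CPM, 10991 to 14839.6 CPM, 11004 to 14213 CPM and 10959.6 to 11753 CPM. No marker in any of the lists was at 0 in all libraries. F1 METH replicate 3 also had the highest F1 median of the microglia, endothelial and further astrocyte lists, at 0.41, 0.29 and 0.36 above the saline mean (log2). Without that library the F1 median was 0.0031 for microglia, 0.18 for endothelial and 0.23 for oligodendrocyte markers.

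**Figure D5:**
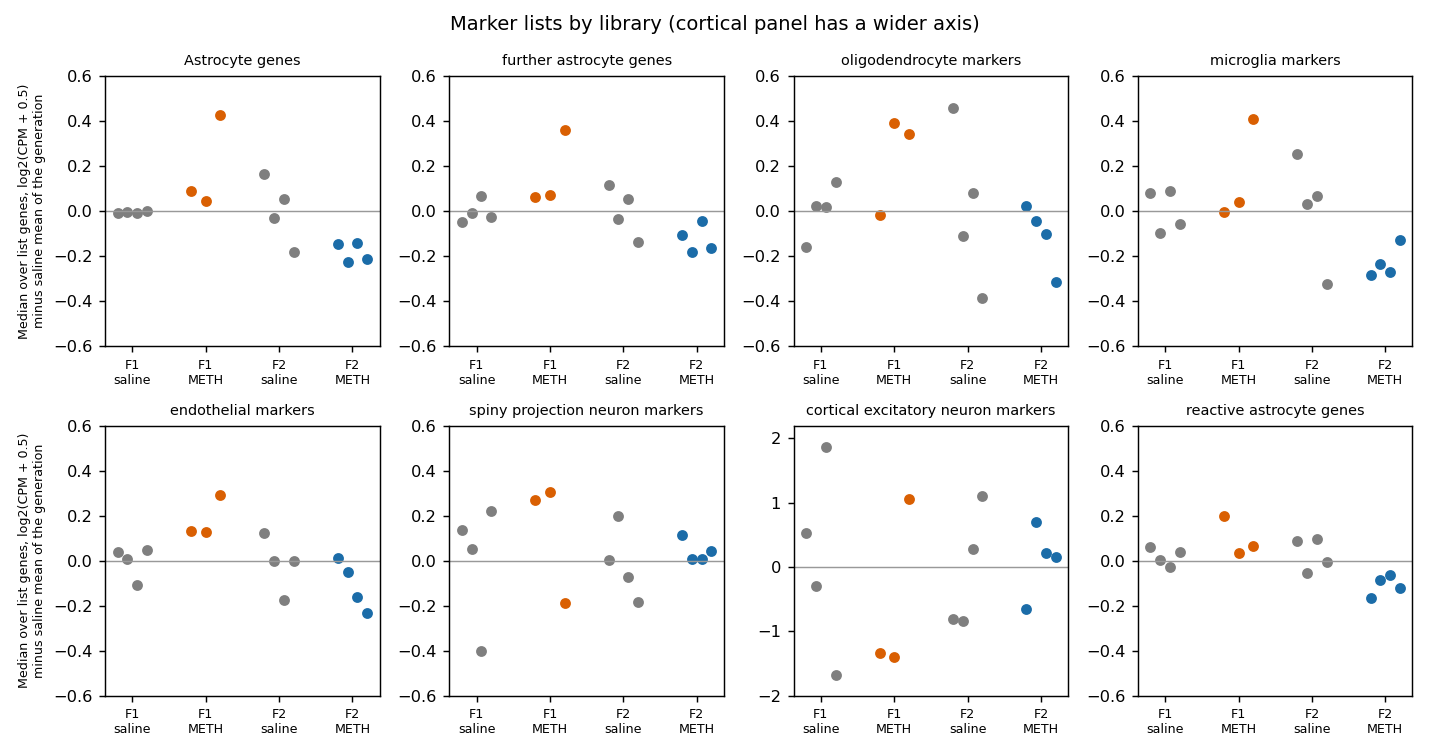
Median over each list of log2(CPM + 0.5) minus the saline mean of the generation (vertical axes; wider for cortical markers) in each library (dots, replicates from left to right) of the 4 groups (horizontal axes). F1 METH replicate 3 is high for astrocyte, further astrocyte and microglia genes (0.43, 0.36 and 0.41), and the F2 METH libraries are below the saline mean for astrocyte and microglia genes.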

How the data were processed

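RNA-seq of striatum from 15 mice was re-analysed from 2 deposited tables, 1 per generation, which list 45777 features with read counts, FPKM and TPM as named in the file headers. The submitters' processing notes name bcl2fastq 2.20.0, Trimmomatic, HISAT2 2.1.0 and StringTie 2.1.3b, with mm10 as the build. Neither settings nor strandedness, nor how counts were made, is given in the sources used here. Column names tied every value column to its sample. The deposited counts are whole numbers and went into edgeR 4.0.16 under R 4.3.3, using TMM factors, filterByExpr (minimum count 10) and the quasi-likelihood F test (glmQLFit, glmQLFTest). P-values were adjusted by Benjamini-Hochberg over all genes tested, with a threshold of 0.05. F1 and F2 were fitted separately, and their difference was tested as an interaction in 1 model of all 15 libraries. CPM were computed from TMM-scaled totals over all libraries. The SE of a log2 fold change is its size divided by the square root of the F statistic. Levels were compared between genes with the authors' TPM, and the authors' FPKM served in 1 alternative.

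The 33 genes and all lists were chosen with earlier results of these data known. Values in every library are given for Slc1a2, Slc1a3, Glul, Gja1, Gjb6, Aqp4, Gfap, S100b, Aldh1l1, Aldoc, Apoe and Sox9 and for the 5 genes with the smallest unadjusted p in each comparison; of each other list, up to 3 genes with the smallest p per comparison could be named. Alternatives were other normalizations, DESeq2 1.42.0, limma 3.58.1 (voom on counts, and trend on log2 of TPM + 1, TPM + 0.1 and FPKM + 1), other filters, leaving out libraries, Slc17a7 as a covariate, 1 fit of all libraries and a replicate block. In 21 pairs of replicates, 0 differed by as little as sampling noise would give (chi-square per degree of freedom 16.1 to 65.8). No pair was thus a technical repeat of 1 sample, but this cannot show that the animals are unrelated. The fits were tested on simulated data. Positions and promoters are from RefSeq (GRCm38.p6, which is mm10) and overlaps from GENCODE vM21. Without strand, reads of overlapping genes cannot be told apart. Python 3.11.15 with matplotlib 3.10.9 drew the figures.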

Additional observations from a re-analysis of the deposited data

Results flagged for a closer look

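Each gene and each group of 4 libraries was screened for a highest or lowest library that stands apart, by the gap to its nearest neighbour as a share of the group's range. Of 99 such groups, 2 exceeded Dixon's limit, and chance gives about 1 in 20. S100b in F1 saline replicate 1 was the highest of its group, with a share of 0.903, at 114 CPM against 99.7 to 101 CPM in the other 3. Ntsr2 in F2 METH replicate 1 was the highest of its group, with a share of 0.831, at 117 CPM against 85.2 to 90.0 CPM in the other 3.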

How the results depend on the processing

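Under every alternative run, 0 of the 33 genes passed the test in any comparison. Over settings other than leaving out single libraries, the median log2 fold change ranged in F1 from 0.059 to 0.20, in F2 from -0.22 to -0.15 and for the difference from -0.39 to -0.27; with each library left out it was 0.072 to 0.26, -0.23 to -0.11 and -0.44 to -0.25. Over all genes, edgeR called 0 genes in F1 and 0 in F2, with 1 for the difference, and the alternatives at most 11, 7 and 7, each with DESeq2. Of the 33 genes, 5, 12 and 19 had an unadjusted p under 0.05, against 0 to 14, 4 to 20 and 8 to 21 over all alternatives. The share of all genes at that p was 4.18, 4.77 and 4.88%. Over the alternatives this share was 2.58 to 9.98%, 3.26 to 8.71% and 4.22 to 6.84%. All 33 genes had at least 187 counts in each library, so the 3 or 4 animals a group, more than depth, limit the precision. The causes of the changes below were not tested.

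Whether replicate numbers pair the animals cannot be settled from correlations between libraries. By column name, animals were numbered 1, 3, 6 and 7 in the saline lineage of each generation. Those of the METH lineage were numbered 2, 3 and 9 in F1 and 2, 5, 6 and 9 in F2. Most libraries that share a replicate number thus differ in animal number. The labels do not say whether F1 and F2 animals of the same number are related. Libraries with the same replicate number correlated at -0.049, 0.067 and 0.50 in F1 and at 0.062, -0.076, -0.077 and -0.044 in F2. Those with different replicate numbers ran from -0.46 to 0.33 in F1 and from -0.13 to 0.14 in F2. The F1 pair at 0.50, saline replicate 3 and METH replicate 3, both had Slc17a7 above 100 CPM. With the replicate block the F1 median was 0.18, the F2 median -0.17 and that of the difference -0.33, and 1846 genes of all had an unadjusted p under 0.05 in F1. With the block, directions turned in F1 for Slc25a18 (-0.29), Glul (-0.040) and Gfap (0.021), and for the difference in Sox9 (-0.047) and Slc6a11 (0.027).

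Under at least 1 alternative, 12 of the 33 genes turned direction in F1 and 6 in F2, with 5 in the interaction. Other turns in F1 were Slc25a18 with limma-voom (-0.062), log2(TPM + 1) (-0.10), log2(TPM + 0.1) (-0.11) and log2(FPKM + 1) (-0.073), and, on the 2 TPM scales, Glul (-0.014 on each) and Slc14a1 (-0.0071 and -0.011). Without libraries above 100 CPM of Slc17a7, 7 genes turned in F1: Slc25a18 (-0.51), Slc14a1 (-0.14), Mfge8 (-0.13), Aldh1l1 (-0.033), Mlc1 (-0.017), Ntsr2 (-0.0077) and Hepacam (-0.0019). That setting also turned Sox9 (0.021) in F2, and Slc25a18 (0.15), Gfap (0.044) and Slc6a11 (0.032) for the difference. Slc4a4, at 0.0035 in F2, was below 0 in 9 alternatives, from -0.0028 with no filter to -0.047 on log2(FPKM + 1). Cbs, at -0.020 in F2, was above 0 in 6, at most 0.077, and in 1 for the difference (0.0011). Without F2 saline replicates 2 and 3 together, Gja1 was at 0.014 in F2.

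With single libraries left out, F1 ranges were -0.67 to 0.33 for Slc25a18, -0.20 to 0.12 for Gfap, -0.046 to 0.13 for Glul, -0.0039 to 0.25 for Slc1a3 and -0.082 to 0.27 for Aqp4. Slc14a1 (-0.074) and Mfge8 (-0.029) turned in F1 without METH replicate 3, and Slc6a11 reached at most 0.073, without saline replicate 2. F2 ranges were -0.33 to 0.061 for Gfap and -0.13 to 0.027 for Sox9, and Sparcl1 was at 0.018 without saline replicate 1. For the difference they were -0.046 to 0.11 for Sox9, -0.74 to 0.25 for Slc25a18 and -0.30 to 0.078 for Gfap, and Slc6a11 was at 0.074 without F1 METH replicate 3 and 0.038 without F2 saline replicate 1.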

Other observations

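Of the 33 astrocyte genes, 13 overlap another annotated gene in GENCODE, 12 of them on the other strand, and the genes lie on 15 chromosomes. Coding partners on the other strand were found for Glul (Teddm2), Slc25a18 (Atp6v1e1) and S100b (Dip2a). The median log2 fold change between generations of the 11 gap junction, water and ion genes was -0.35, that of the 7 metabolic genes -0.42 and that of the 5 receptors and signalling genes -0.39. Ependymal markers (11 tested in F1, median -0.17; 12 tested in F2, median 0.033) and choroid plexus markers (8 tested, medians -0.12 and -0.097) were low, at 16.0 to 50.4 CPM and 19.5 to 55.7 CPM in sum per library. Both lists changed sign when single libraries were left out: without F1 saline replicate 4 their F1 medians were 0.37 and 0.17, and without F2 METH replicate 3 the ependymal median in F2 was -0.14.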
